A study of Mus musculus with 28 samples.

Results

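NRF2-type antioxidant genes are described here as a panel of 10 mouse genes, Hmox1, Nqo1, Gclc, Gclm, Slc7a11, Txnrd1, Srxn1, Gsr, Gpx4 and Prdx6, out of 53342 genes in each count table. They were chosen by name, with earlier results of these data known, and each symbol matched 1 Ensembl gene. NRF2, encoded by Nfe2l2, is a transcription factor that KEAP1 marks for degradation in unstressed cells. When KEAP1 is modified by oxidants or electrophiles, NRF2 accumulates, pairs with small MAF proteins and acts at antioxidant response elements. Its targets make and recycle glutathione, reduce thioredoxin and peroxiredoxins, and break down heme and quinones, and in the brain astrocytes are known for a strong NRF2 response. Gpx4 and Prdx6 are antioxidant enzymes with other regulators as well.

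The libraries came from the cerebral cortex of mice with an astrocyte gene deletion. Conditional knockout mice (cKO) carried the mGFAP-Cre driver and 2 loxP alleles of the targeted gene, and controls (Ctrl) were sex-matched littermates with the genotype loxP/loxP or loxP/+, all on a C57BL/6J background. Bulk RNA-Seq was made at P17 and at P24 from 4 cKO and 4 Ctrl mice at each age. For translating ribosome affinity purification (TRAP-Seq), 3 cKO and 3 Ctrl mice at P24 expressed the ribosomal fusion protein EGFP/Rpl10a wherever mGFAP-Cre was active, so the tag in Ctrl mice also needed the driver. Each of these mice gave an Input library, from a share of the cleared, detergent-treated cortex lysate before purification, and an IP library of RNA bound to tagged ribosomes. Every library was 1 mouse. The genotype given for Ctrl mice does not list the driver, which the tag of TRAP Ctrl mice needed. The genotype of TRAP Ctrl mice is thus not fully known and may differ from that of bulk Ctrl mice. The driver follows a Gfap promoter, so cells other than astrocytes in which it was active would also be deleted and tagged.

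Levels are counts-per-million values (CPM), scaled with TMM factors within each table, and fold changes come from edgeR's quasi-likelihood test with Benjamini-Hochberg adjustment over all genes tested and a two-sided threshold of 0.05. The libraries held 8855488 to 27242445 counts. In Ctrl mice 7 of 7 astrocyte markers were higher in IP than in Input, 5 of 6 neuron markers and 7 of 7 microglia markers were lower, and no marker list had a gene at 0 in every library of a group. The library labelled Input cKO replicate 1 stood apart from the other Input cKO libraries, its counts giving 85.2 and 89.8 as chi-square over degrees of freedom against them, where those 2 gave 8.99 between themselves, so results that rest on it are given with and without it.

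Promoters are shown first because NRF2 acts through a short DNA element in its targets. RefSeq windows of GRCm38.p6, from 250 bases before to 50 bases after an annotated start, were at hand for 6 of the 10 genes. Entries for Hmox1, Gclc, Gsr and Prdx6 are not used here. The core of the antioxidant response element was searched as TGACNNNGC on both strands, where N is any base. It was found in 3 of the 11 windows of these genes, against 12.4% of all 32851 windows. The 30 bases around each match are printed in the direction of the gene with the match in capitals, each of which lies on the opposite strand.
Gclm (chr3:122245413-122245442, + strand): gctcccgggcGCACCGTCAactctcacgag
Txnrd1 (chr10:82859104-82859133, + strand): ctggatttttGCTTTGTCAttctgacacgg
Srxn1 (chr2:152105542-152105571, + strand): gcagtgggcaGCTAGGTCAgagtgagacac
The Gclm and Txnrd1 matches began 134 and 92 bases before a start, and the Srxn1 match began 28 bases after it. No match was found in the windows of Nqo1, Slc7a11 or Gpx4, which says only that these letters are not in those windows. The 250 bases before the Srxn1 start are also printed, since this gene had the clearest difference between IP libraries. Capitals mark TGANTCA, a core that AP-1 proteins bind, which was searched after this sequence had been read. Which factors bind at these matches was not tested.
Srxn1 (chr2:152105274-152105523, + strand): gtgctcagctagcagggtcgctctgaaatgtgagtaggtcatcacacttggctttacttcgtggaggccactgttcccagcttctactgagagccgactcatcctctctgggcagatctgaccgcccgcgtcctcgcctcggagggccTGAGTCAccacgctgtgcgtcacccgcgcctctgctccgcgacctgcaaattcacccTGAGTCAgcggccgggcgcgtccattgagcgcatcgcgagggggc
These 2 matches began 102 and 45 bases before the start, and 7.81% of all windows held TGANTCA. It was found in none of the other 10 windows of the panel. With the bases that follow, the match 45 bases before the start reads TGAGTCAGC. That sequence differs from TGACNNNGC only in having G in place of the fixed C. The search for the antioxidant response element therefore could not find it, and no search allowing G there was run. The matches to TGACNNNGC thus do not show that the bases before this start lack such an element.

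In IP libraries, which carry RNA on tagged ribosomes, 6 of the 10 genes were higher in cKO than in Ctrl mice and 1 was lower. Gsr and Srxn1 rose the most, by 2.12-fold and 2.03-fold, followed by Gpx4, Prdx6, Hmox1 and Txnrd1, while Nqo1 fell. Gclc, Gclm and Slc7a11, which supply glutathione synthesis, did not pass the test. Of all 23864 genes tested in this comparison 20.0% passed in either direction, 11.6% upward and 8.42% downward. The median log2 fold change of the panel was 0.46, against -0.01 over all genes tested. Because the panel was chosen with earlier results of these data known, its counts and median beside all genes are descriptions only. The summed level of the 7 astrocyte markers in the same libraries was 8393 to 11119 CPM in Ctrl and 7626 to 10276 CPM in cKO, with a median log2 fold change of -0.37, and Slc1a2 and Slc1a3 were called lower. The 6 neuron markers summed to 2107 to 2588 CPM and 2155 to 2258 CPM, and 2 of them were called lower. The part of either list in the panel's values was not tested. Scaling by library size alone moved the median of all genes to -0.13 and turned the split of all calls from 2772 up and 2010 down to 2002 up and 3529 down. The 10 genes of the panel kept their direction in IP under that scaling, except that Gclc was then 0.00.

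**Figure D1:**
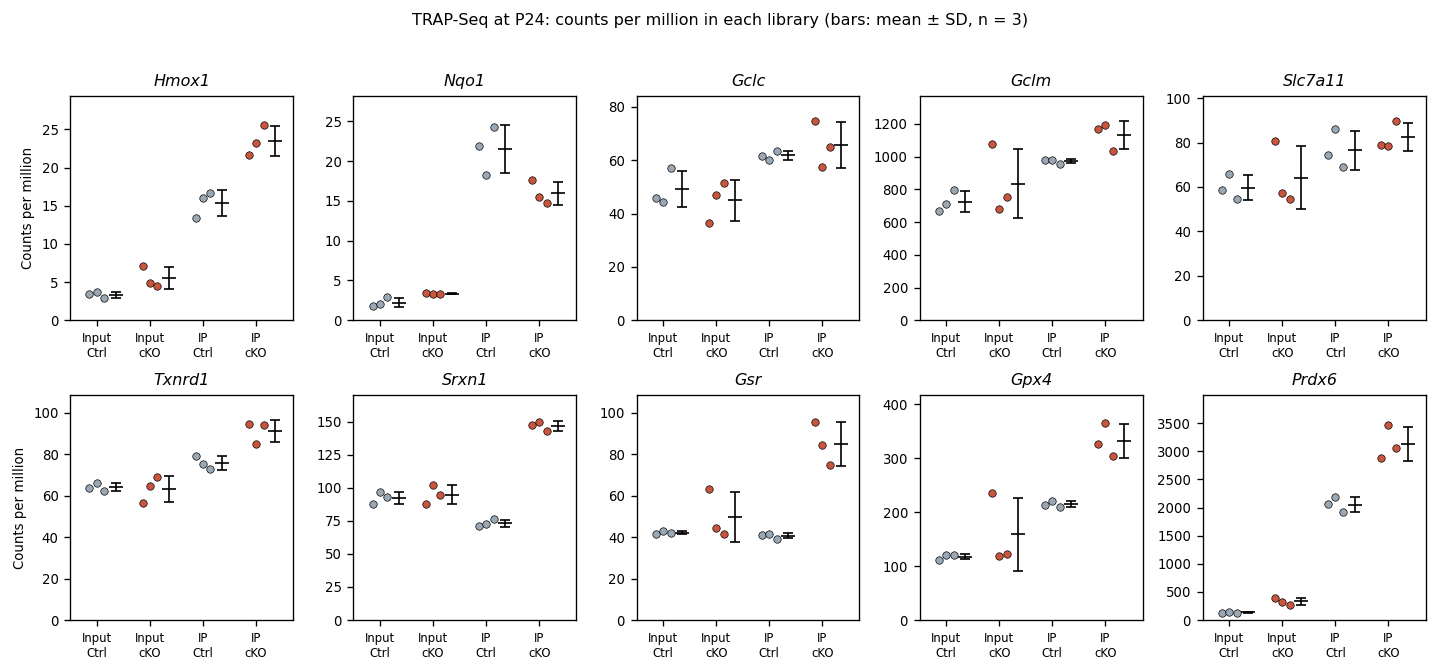
CPM (vertical axis, linear from 0) of the 10 genes in each TRAP-Seq library at P24, by fraction and genotype, with 1 point per mouse and the mean ± SD beside each group (n = 3). The Srxn1 and Gsr points of the IP cKO libraries lie above every other library, while in Input the genotypes overlap for both genes.

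Sulfiredoxin, encoded by Srxn1 (chr2:152105516-152111376, + strand), repairs overoxidized peroxiredoxins. Its level was 71.3, 72.6 and 76.4 CPM in the IP Ctrl libraries and 148, 150 and 143 CPM in the IP cKO libraries. Every cKO mouse lay above every Ctrl mouse, as for 18.3% of all genes tested (37.8% in either direction, 19.5% below Ctrl), and in the whole panel 7 genes lay wholly above Ctrl in IP and 1 wholly below. The log2 fold change was 1.02 (SE 0.09, 95% interval 0.83 to 1.22, edgeR adjusted p = 6.22e-05). In Input libraries of the same mice Srxn1 was 88.0, 96.6 and 93.0 CPM in Ctrl and 87.7, 102 and 94.7 CPM in cKO, and the genotypes overlapped (log2 fold change 0.02, SE 0.14, edgeR adjusted p = 0.980).

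The ratio of IP to Input within a mouse shows the same values another way. For Srxn1 it was 0.810, 0.752 and 0.822 in Ctrl mice and 1.69, 1.47 and 1.51 in cKO mice, so its RNA lay below the Input level in every Ctrl mouse and above it in every cKO mouse. The test of the difference between fractions, an interaction of fraction and genotype, gave 1.00 on the log2 scale (SE 0.16, interval 0.66 to 1.34, edgeR adjusted p = 0.0407), and Srxn1 was the 1 gene of the panel that passed it, against 0.0582% of 25768 genes, 0.0388% upward and 0.0194% downward. That call was lost when the mouse was kept as a block (adjusted p = 0.156), with RLE factors and with library size alone, and in 10 of 12 fits that left out 1 library, where the estimate stayed between 0.93 and 1.06. Without Input cKO replicate 1, the library that stood apart, 3 genes passed: Srxn1, Gsr (log2 1.06, adjusted p = 0.00577) and Gpx4 (log2 0.62, adjusted p = 0.0416).

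Glutathione reductase, encoded by Gsr (chr8:33652523-33698163, + strand), returns oxidized glutathione to its reduced form with NADPH. It measured 41.2, 41.5 and 39.3 CPM in IP Ctrl and 95.7, 84.7 and 74.7 CPM in IP cKO, with no overlap between the genotypes (log2 fold change 1.09, SE 0.11, edgeR adjusted p = 0.000142). In Input it was 41.7, 43.0 and 41.9 CPM in Ctrl and 63.5, 44.4 and 41.4 CPM in cKO, where the highest value belongs to the library that stood apart. The Gsr ratio of IP to Input was 0.938 to 0.988 in Ctrl mice and 1.51 to 1.91 in cKO mice, and the interaction was 0.86 (SE 0.21, edgeR adjusted p = 0.164).

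Peroxidases came next. Prdx6 (chr1:161240112-161251219, - strand), a peroxiredoxin that uses glutathione and also acts on phospholipids, was the most abundant of the panel in IP libraries. It measured 2068, 2179 and 1913 CPM in IP Ctrl and 2878, 3464 and 3065 CPM in IP cKO, and the groups did not overlap. The log2 fold change was 0.63 (SE 0.11, edgeR adjusted p = 0.00235). Prdx6b, whose annotated transcripts are 91.4% identical over 701 bases, had 10.1 to 12.4 CPM in IP Ctrl and 15.3 to 17.5 CPM in IP cKO, and how reads shared by the 2 genes were counted is not given in the sources used here.

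Gpx4 (chr10:80047166-80056439, + strand) reduces lipid peroxides and is known as the enzyme that holds back ferroptosis. Its values were 214, 221 and 210 CPM in IP Ctrl and 327, 365 and 304 CPM in IP cKO, without overlap (log2 fold change 0.65, SE 0.10, edgeR adjusted p = 0.00163). In Input the Ctrl libraries held 112, 121 and 120 CPM, and the cKO libraries 236, 118 and 122 CPM, so that only the library that stood apart was clear of Ctrl. The pseudogene Gpx4-ps2 is 99.7% identical to Gpx4 over 762 bases and had more counts than Gpx4 itself, 262 to 273 CPM in IP Ctrl and 375 to 455 CPM in IP cKO. Reads of the 2 genes cannot be told apart in these tables, so the level of Gpx4 is uncertain, while the log2 fold change of Gpx4-ps2 in IP was also 0.65.

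Hmox1 (chr8:75093621-75100589, + strand) encodes heme oxygenase, which opens the heme ring and releases iron. It was low throughout, at 13.4, 16 and 16.7 CPM in IP Ctrl and 21.6, 23.2 and 25.6 CPM in IP cKO, with no overlap (log2 fold change 0.63, SE 0.12, edgeR adjusted p = 0.00529). Macrophages also express Hmox1, and the summed level of 5 macrophage markers was 3.07 to 5.59 CPM in IP Ctrl and 5.74 to 7.15 CPM in IP cKO. None of them was called, 1 of the 5 being high enough to be tested, and their part in the Hmox1 result was not tested. The summed level of 3 red blood cell genes was 26.0 to 56.9 CPM and 34.7 to 76.9 CPM, so the genotypes overlapped.

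Txnrd1 (chr10:82833951-82897712, + strand), the cytosolic thioredoxin reductase, and Nqo1 (chr8:107388225-107403206, - strand), a quinone reductase often used as a marker of NRF2 activity, were closest to the threshold. Txnrd1 was 79.1, 75.2 and 72.8 CPM in IP Ctrl and 94.3, 85.0 and 94.1 CPM in IP cKO (log2 fold change 0.29, SE 0.09, edgeR adjusted p = 0.0437). Nqo1 was 21.9, 18.3 and 24.3 CPM in IP Ctrl and 17.6, 15.5 and 14.8 CPM in IP cKO (log2 fold change -0.41, SE 0.13, edgeR adjusted p = 0.0480). Neither pair of groups overlapped, and both calls were fragile. Leaving out 1 library ended the Txnrd1 call in 6 of 6 fits (adjusted p 0.0551 to 0.130) and kept the Nqo1 call in 1 of 6 (adjusted p 0.0331 to 0.170), so each of the 6 IP libraries decided the first and 5 of them the other. In Input, Nqo1 was 1.79, 1.99 and 2.87 CPM in Ctrl and 3.45, 3.26 and 3.32 CPM in cKO, the opposite order to IP, with a log2 fold change of 0.57 that did not pass (SE 0.24, edgeR adjusted p = 0.812). The difference between the fractions was -0.99 for Nqo1 (SE 0.26, edgeR adjusted p = 0.196).

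The 3 genes of glutathione supply showed smaller differences. Gclc (chr9:77754535-77794485, + strand) encodes the catalytic subunit of glutamate-cysteine ligase, and it overlapped between genotypes at 60.2 to 63.5 CPM in IP Ctrl and 57.3 to 74.6 CPM in IP cKO (log2 fold change 0.11, interval -0.12 to 0.34). Slc7a11 (chr3:49892526-50443614, - strand), which exchanges cystine for glutamate, overlapped as well at 68.9 to 86.1 CPM and 78.5 to 89.9 CPM (0.13, interval -0.10 to 0.37). Gclm (chr3:122245557-122270732, + strand), the modifier subunit of the ligase, was 978, 976 and 956 CPM in IP Ctrl and 1171, 1190 and 1031 CPM in IP cKO, which did not overlap, with a log2 fold change of 0.24 that missed the threshold (SE 0.10, edgeR adjusted p = 0.0952). With the replicate number as a block 8 of the 10 genes passed in IP, Gclm being the added one (adjusted p = 0.0375).

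The Gclm values carry a limit of annotation. A short exon of a noncoding Gclm transcript lies within the antisense gene Gm17494, over 296 bases, and overlaps the pseudogene Gm6061 by 244 bases. These 2 genes had levels near that of Gclm in IP Ctrl, 999 to 1032 CPM for Gm17494 and 686 to 732 CPM for Gm6061, and it is not given in the sources used here whether the counting used strand. Whether reads of Gclm were counted to these genes, or theirs to Gclm, therefore cannot be told from these tables. A stretch of the Slc7a11 model is 92.3% identical to Tuba1b over 588 bases, an α-tubulin gene at 537 to 561 CPM in IP Ctrl, so Slc7a11 is uncertain for the same reason.

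**Figure D2:**
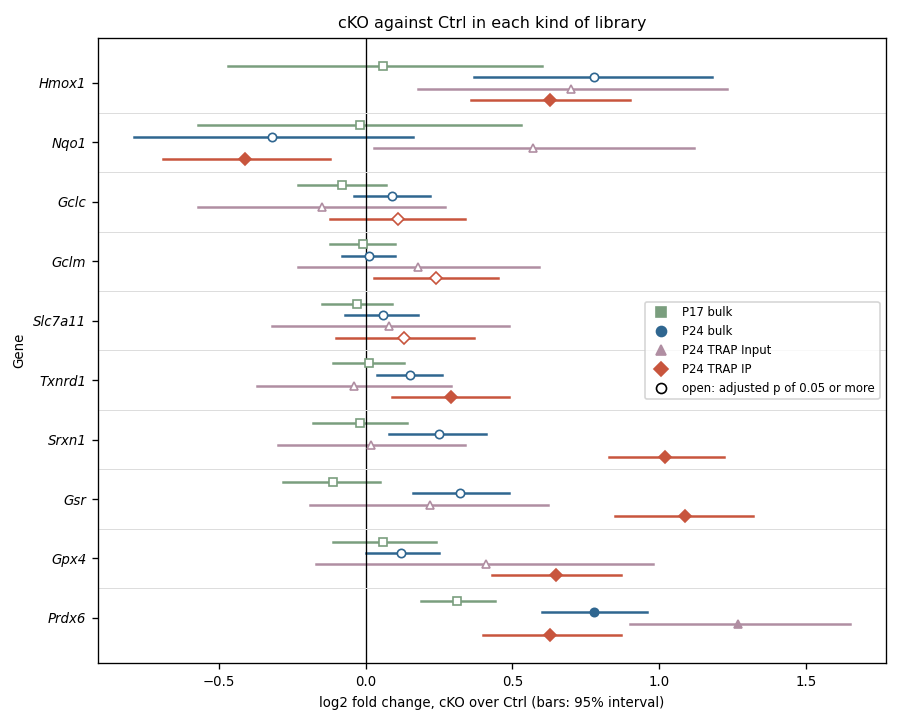
log2 fold change of cKO over Ctrl (horizontal axis) with its 95% interval for each gene in P17 bulk, P24 bulk, P24 TRAP Input and P24 TRAP IP libraries, filled where the adjusted p was under 0.05. Prdx6 lies to the right of 0 in each kind of library, and Srxn1 and Gsr reach about 1 in IP libraries only among the 4 kinds plotted.

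In whole cortex at P24, Prdx6 was the 1 gene of the 10 that passed the test, where 1.72% of 22495 genes did, 1.26% upward and 0.462% downward. It measured 82.2, 76.2, 75.6 and 80.0 CPM in Ctrl and 119, 150, 151 and 119 CPM in cKO. Every cKO mouse lay above every Ctrl mouse, as for 3.95% of all genes (7.69% in either direction), and the log2 fold change was 0.78 (SE 0.08, 95% interval 0.60 to 0.96, edgeR adjusted p = 0.000492). The call held in all 14 alternatives, with estimates of 0.72 to 0.83. In bulk samples a change in the number of cells of a type and a change in RNA per cell cannot be told apart. The summed level of 7 astrocyte markers was 3653 to 4280 CPM in P24 bulk Ctrl and 3301 to 3603 CPM in cKO. Their median log2 fold change was 0.04 (range -0.41 to 1.25), with Aldh1l1 and Aqp4 higher and Slc1a2 and Slc1a3 lower. The part of these markers in the Prdx6 value was not tested.

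Hmox1 and Gsr were also above Ctrl in every P24 bulk cKO mouse without passing. Hmox1 was 2.05, 2.72, 2.70 and 2.69 CPM in Ctrl and 3.67, 3.60, 4.35 and 5.76 CPM in cKO, from 28 to 37 reads in each Ctrl library (log2 fold change 0.78, SE 0.19, edgeR adjusted p = 0.0643). Gsr was 18.9, 16, 16.5 and 18.3 CPM in Ctrl and 19.5, 22.9, 21.6 and 23.1 CPM in cKO (0.32, SE 0.08, edgeR adjusted p = 0.0643). Srxn1, at 42.4 to 48.9 CPM in Ctrl and 49.5 to 59.4 CPM in cKO, and Txnrd1, at 38.0 to 39.4 CPM and 40.5 to 45.5 CPM, had no overlap either (log2 fold changes 0.25 and 0.15, edgeR adjusted p = 0.159 and 0.193). In all, 5 of the 10 genes lay wholly above Ctrl and none wholly below, beside 3.95% and 3.74% of all genes. Without P24 bulk cKO replicate 1, which had the lowest or next to lowest cKO value of these genes, 4 genes passed: Prdx6, Hmox1 (adjusted p = 0.0243), Srxn1 (adjusted p = 0.0410) and Gsr (adjusted p = 0.0186). Whole-table calls rose from 388 to 950 in the same fit. The counts of that replicate gave 12.7 to 15.8 as chi-square over degrees of freedom against the other P24 bulk cKO libraries. Those gave 3.46 to 5.25 among themselves. The other genes of the panel overlapped, with log2 fold changes from -0.32 for Nqo1 to 0.12 for Gpx4.

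**Figure D3:**
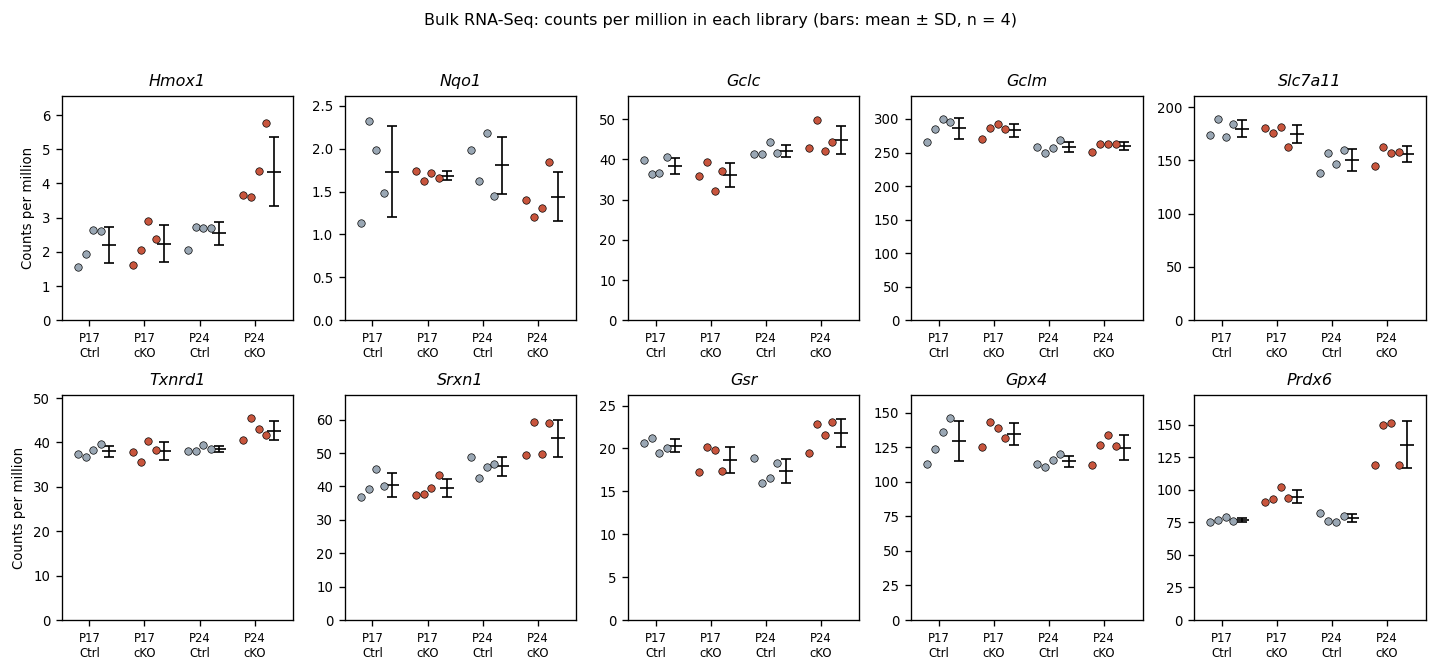
CPM (vertical axis, linear from 0) of the 10 genes in each bulk RNA-Seq library, by age and genotype, with 1 point per mouse and the mean ± SD beside each group (n = 4). At P24 the Prdx6 values of cKO mice run from 119 to 151 and those of Ctrl mice from 75.6 to 82.2, with a smaller gap at P17.

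At P17 none of the 10 genes passed, and 0.0943% of 21201 genes did, 0.0660% upward and 0.0283% downward. Over the panel 1 gene had an unadjusted p under 0.05, beside 847 of all 21201 genes, and DESeq2 called 1, in both cases Prdx6. Prdx6 measured 75.5, 76.6, 79.1 and 75.7 CPM in Ctrl and 90.3, 93.3, 102 and 93.8 CPM in cKO, higher in every cKO mouse, as for 1.60% of all genes, with 1.34% lower and 2.95% in either direction (log2 fold change 0.31, SE 0.06, edgeR adjusted p = 0.112). Mice with the same replicate number deviated together at P17, and with the number as a block Prdx6 passed (adjusted p = 0.00134), as did 109 genes in place of 20. DESeq2 gave an adjusted p of 0.00290 without the block. The other 9 genes overlapped at P17 and had log2 fold changes between -0.11 and 0.06. Hmox1, for example, was 1.57, 1.95, 2.65 and 2.61 CPM in Ctrl and 1.63, 2.05, 2.91 and 2.38 CPM in cKO.

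The difference between the ages was tested as an interaction of age and genotype, which 0.0470% of 23395 genes passed, 0.0342% upward and 0.0128% downward. None of the panel passed with edgeR, and DESeq2 called 1. An unadjusted p under 0.05 was found for 4 of the 10, beside 1479 of all 23395 genes. The estimates were 0.46 for Prdx6 (SE 0.11, edgeR adjusted p = 0.227), 0.44 for Gsr (SE 0.11, adjusted p = 0.275) and 0.71 for Hmox1 (SE 0.31, adjusted p = 0.755). The ages came from separate tables, and any difference in library making between them cannot be told apart from age.

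In TRAP Input libraries Prdx6 was again the 1 gene that passed, beside 0.109% of 23828 genes, 0.0923% upward and 0.0168% downward. It was 131, 143 and 129 CPM in Ctrl and 393, 325 and 270 CPM in cKO, and the groups did not overlap, as for 7.11% of all genes in this direction, 4.69% in the other and 11.8% in either (log2 fold change 1.27, SE 0.16, edgeR adjusted p = 0.0410). The call was lost with the replicate number as a block (adjusted p = 0.118) and without any 1 of the 3 Input Ctrl libraries or Input cKO replicate 2, with estimates of 1.14 to 1.39. The summed astrocyte marker level in the same Input libraries was 811 to 942 CPM in Ctrl and 1148 to 1452 CPM in cKO, and its part in the Prdx6 value was not tested. Hmox1, at 2.87 to 3.65 CPM in Ctrl and 4.52 to 7.17 CPM in cKO, and Nqo1 were the other 2 genes without overlap.

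Enrichment on tagged ribosomes separated the panel. In Ctrl mice 7 of the 10 genes were higher in IP than in Input, Srxn1 was lower, and Gsr and Txnrd1 did not pass, in a comparison where 71.0% of 24385 genes passed, 35.3% upward and 35.7% downward. Prdx6 led with a log2 difference of 3.89 (SE 0.11, edgeR adjusted p = 5.05e-10), within the range of 2.40 to 4.62 of the 7 astrocyte markers. Nqo1 at 3.24 (SE 0.19) and Hmox1 at 2.16 (SE 0.16) followed, then Gpx4 at 0.82, Gclm at 0.38, Slc7a11 at 0.31 and Gclc at 0.29. The last 2 calls were fragile. Leaving out 1 library kept the Slc7a11 call in 3 of 6 fits (edgeR adjusted p up to 0.0903). The Gclc call was kept in 4 of 6 (edgeR adjusted p up to 0.136). Srxn1 was -0.38 (SE 0.09, edgeR adjusted p = 0.00271) and Gsr -0.10 (SE 0.09, adjusted p = 0.356).

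In cKO mice 8 of the 10 genes were higher in IP and none lower, with 56.3% of 24011 genes passing, 27.8% upward and 28.5% downward. Srxn1 was 0.62 (SE 0.15, edgeR adjusted p = 0.00710) and Gsr 0.77 (SE 0.18, edgeR adjusted p = 0.00654), while Prdx6 was 3.25 and Nqo1 2.24. The Nqo1 ratio of IP to Input was 8.47 to 12.2 in Ctrl mice and 4.46 to 5.10 in cKO mice, and that of Prdx6 14.8 to 15.8 and 7.32 to 11.4. The 7 astrocyte markers moved the same way, with log2 differences of IP over Input of 2.40 to 4.62 in Ctrl and 1.67 to 3.81 in cKO mice and interactions of -1.01 to -0.61, of which none passed. Their part in the Nqo1 and Prdx6 ratios was not tested. With the mouse as a block Gclc was lost (adjusted p = 0.0669), and without Input cKO replicate 1 all 10 genes passed.

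**Figure D4:**
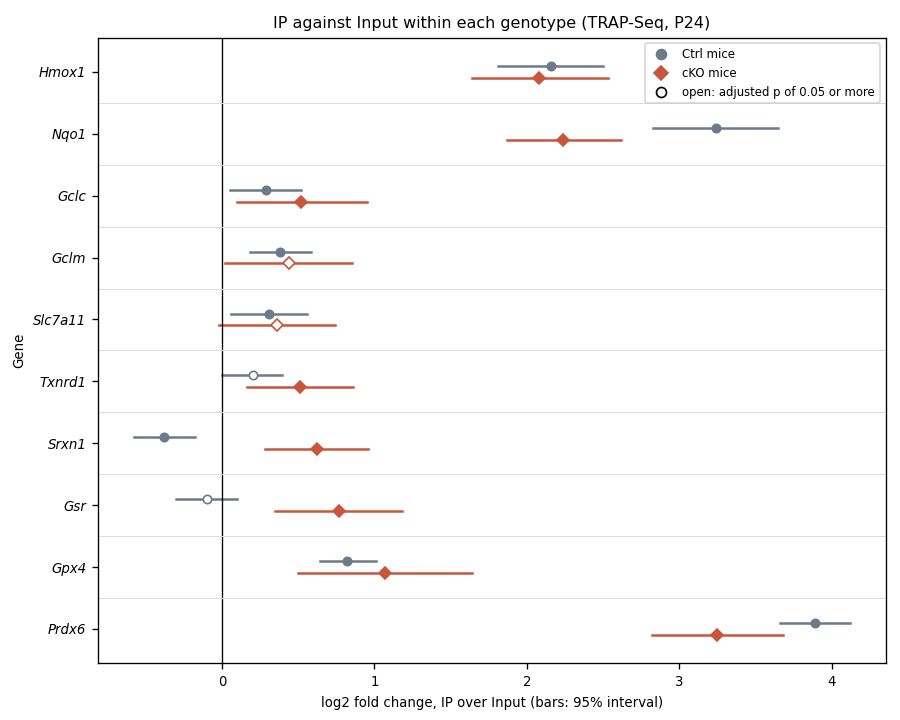
log2 fold change of IP over Input (horizontal axis) with its 95% interval for each gene in Ctrl and cKO mice at P24, filled where the adjusted p was under 0.05. Prdx6, Nqo1 and Hmox1 lie above 2 in both genotypes, and Srxn1 moves from -0.38 in Ctrl to 0.62 in cKO mice.

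Per kilobase of exon, the order of levels differed between cortex and ribosome-bound RNA. In P24 bulk Ctrl, Gpx4 was highest at 66.7 ± 2.26 CPM per kb (SD, n = 4), then Gclm at 41.1 ± 1.14, Srxn1 at 16.3 ± 0.968 and Prdx6 at 16.3 ± 0.661, whose ranges overlapped. Gclc and Slc7a11 overlapped next at 11.2 and 10.8 CPM per kb, and Hmox1 and Nqo1 were lowest and overlapped at 1.45 and 1.16 CPM per kb. In IP Ctrl, Prdx6 was highest at 427 ± 27.8 CPM per kb (SD, n = 3), above Gclm at 154 and Gpx4 at 125, Gsr and Nqo1 overlapped at 14.8 and 13.8, and Slc7a11 was lowest at 5.49 CPM per kb. The limits given for Gclm, Gpx4 and Slc7a11 apply to these levels too.

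Nfe2l2 itself was higher in cKO mice in P24 bulk and IP libraries. It was 12.6, 9.42, 7.36 and 9.09 CPM in P24 bulk Ctrl and 15.7, 14.9, 15.8 and 14.1 CPM in cKO (log2 fold change 0.66, SE 0.13, edgeR adjusted p = 0.0288), a call that held in 2 of 8 fits without 1 library. In IP it was 73.2, 66.9 and 85.4 CPM in Ctrl and 103, 105 and 117 CPM in cKO (0.55, SE 0.11, edgeR adjusted p = 0.00626), which held in all 12 alternatives. Neither pair of groups overlapped. In Input it was 7.25 to 7.41 CPM in Ctrl and 15.0 to 17.4 CPM in cKO, without overlap (1.10, edgeR adjusted p = 0.0504). It passed in Input without cKO replicate 1 (1.04, adjusted p = 0.00751) and with DESeq2 (adjusted p = 7.96e-06), and not with the replicate block (adjusted p = 0.227) or without any 1 of the other Input libraries (adjusted p 0.120 to 0.396). NRF2 activity is set largely by protein turnover, which RNA levels do not measure. In IP, Keap1 (log2 fold change -0.07) and Bach1 (0.24), which encodes a repressor at the same DNA elements, did not pass. Maff, a small MAF partner, rose by 1.47 (SE 0.21, edgeR adjusted p = 0.00122) from 1.88 to 3.03 CPM to 5.25 to 7.06 CPM. The other small MAF genes listed, Mafg (0.16) and Mafk (0.05), did not pass in IP. In P24 bulk Maff did not pass (0.81, edgeR adjusted p = 0.200). Of a list of 10 regulators 2 were called in IP, Nfe2l2 and Maff.

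Beyond the panel, 60 other redox genes in 7 lists were followed. These lists were also chosen with earlier results of these data known, so their counts beside all genes are descriptions only. In IP libraries 26 of the 59 tested were higher in cKO and 2 lower, with a median log2 fold change of 0.26, beside the 11.6% and 8.42% of all genes. With all TRAP libraries in one fit 15 were higher and 2 lower, and with library size only 22 and 5. Among glutathione enzymes and transporters 7 of 14 rose and 1 fell, led by Gpx1 at 1.08 and Gstp1 at 0.74, while Oplah, the oxoprolinase of the glutathione cycle, was -0.78. Among thioredoxin and peroxiredoxin genes 5 of 11 rose, with Txn1 at 1.15 and Prdx3 at 0.62, and Txnip, which encodes an inhibitor of thioredoxin, was -1.36. Txnip ranged from 32.0 to 110 CPM in IP Ctrl and from 18.0 to 29.4 CPM in IP cKO.

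In the list of NADPH-producing and pentose phosphate enzymes 3 of 7 rose, Taldo1 at 0.84, Me1 at 0.71 and G6pdx at 0.48. Of these, Me1 and G6pdx make NADPH and Taldo1 does not. Of the superoxide and peroxide enzymes 2 of 4 rose, Sod3 at 0.83 and Sod1 at 0.43. Blvrb, a biliverdin reductase, was the 1 of 3 heme degradation genes that rose, by 0.85. Of the list of other NRF2 targets 6 of 10 rose, with Osgin1 at 2.52, from 0.378 to 0.985 CPM to 3.09 to 4.22 CPM, and Ephx1, an epoxide hydrolase, at 1.51. The 4 that did not pass were Ugdh at -0.25, Cbr1 at -0.19, Cbr3 at -0.15 and Aifm2 at 0.13. In P24 bulk 7 of 59 genes rose and none fell, beside 1.26% and 0.462% of all genes. The 7 were Nfe2l2, Ephx1 (1.20), Txn1 (0.40), Slc3a2 (0.39), Tkt (0.35), Gstp1 (0.31) and Prdx3 (0.30). Leaving out 1 library gave 15 calls without P24 bulk cKO replicate 1 and 2 to 4 without any other. The whole table had 388 calls with every library, 950 without that replicate and 216 to 272 without any other. In P24 bulk Keap1 was -0.04 and Bach1 0.12, and neither passed. At P17 none of the 59 passed with edgeR or DESeq2. An unadjusted p under 0.05 was found for 7, 5 higher and 2 lower in cKO, beside 847 of all 21201 genes. With the replicate number as a block, which pairs the mice at P17, Tkt passed (log2 fold change 0.20, edgeR adjusted p = 0.0499). In Input none passed, and 14 had an unadjusted p under 0.05, all higher in cKO, beside 960 of all 23828 genes in either direction. Without Input cKO replicate 1 the genes Nfe2l2, Ephx1 (1.19, adjusted p = 0.00752) and Sod3 (1.91, adjusted p = 0.00357) passed in Input, and the same 3 genes passed with DESeq2, with no low-count filter and with all TRAP libraries in one fit.

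**Figure D5:**
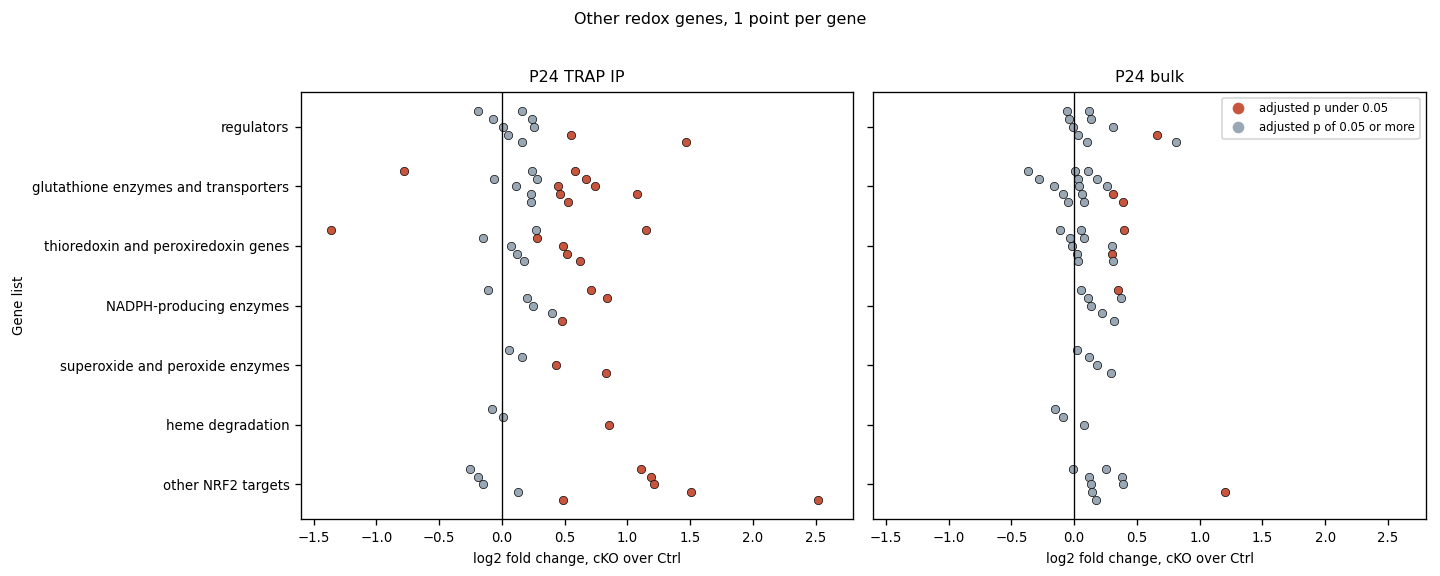
log2 fold change of cKO over Ctrl (horizontal axis) of the other redox genes in 7 lists, 1 point per gene, in P24 TRAP IP and P24 bulk libraries, coloured where the adjusted p was under 0.05. In IP 26 genes pass to the right of 0 and 2 to the left, Oplah and Txnip, and in bulk 7 pass, all to the right.

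The gene with the most similar profile to each member was found by Pearson correlation of log2 CPM over all 28 libraries after centring each table. These values are descriptions, since the libraries share tables and the gap between IP and Input shapes them. Prdx6 was nearest to Gng5 (r = 0.993), Nqo1 to Aldh1a1 (0.975), Hmox1 to Adi1 (0.973), Txnrd1 to Mras (0.947), Gclc to Mbnl2 (0.926), Gsr to Esd (0.921), Slc7a11 to Fdps (0.921) and Srxn1 to Igfbp3 (0.919). Gclm and Gpx4 were nearest to an overlapping gene and a near-identical copy, Gm6061 (0.988) and Gpx4-ps2 (0.998), whose reads may be shared with theirs. Within the panel correlations ran from 0.09 for Nqo1 and Srxn1 to 0.96 for Gclm and Gpx4. Srxn1 and Gsr correlated at 0.83, and Srxn1 and Prdx6 at 0.33.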

How the data were processed

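Bulk RNA-Seq libraries (16) and TRAP-Seq libraries (12) of mouse cortex were analysed as raw counts per Ensembl gene, as deposited by the authors in 3 tables, 1 per age of bulk RNA-Seq and 1 for TRAP-Seq. Bulk RNA was reverse transcribed from oligo-dT primers, and TRAP RNA was selected on oligo-dT beads, so both favour polyadenylated RNA. The submitters' processing notes name STAR, edgeR and the build mm10. The counting tool, annotation and use of strand are not given in the sources used here, and the age of each bulk table comes from the table's own name. Groups and replicate numbers came from the sample titles, and the targeted gene is not reported here.

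Library totals were 12603888 to 14575306 counts at P24, 8855488 to 11454729 at P17 and 18433087 to 27242445 for TRAP-Seq, so that 3 counts, the limit below which a gene at 0 cannot be told from absent, were 0.206 to 0.339 CPM in bulk and 0.110 to 0.163 CPM in TRAP libraries, for counting error only. Each comparison was fitted over all genes with edgeR 4.0.16 (R 4.3.3; filterByExpr, TMM factors, quasi-likelihood F test, two-sided) on its own groups, with Benjamini-Hochberg adjustment and a threshold of 0.05. Standard errors are the log2 fold change over the square root of F. The interactions were fitted over both ages or both fractions. On simulated data with 200 genes changed by 1 on the log2 scale, 99.0% were recovered for P24 bulk and 90.5% for IP, and 5.26% and 9.05% of the calls were false. Alternatives were RLE factors, library size only, DESeq2 1.42.0, no low-count filter, the replicate number as a block, one fit over every library of a table, and each library left out in turn.

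The 10 members were given by name, and 7 lists of 60 other redox genes and the cell type marker lists were fixed by name. Members and lists were chosen with earlier results of these data known. All members were named, and from each list those called with the largest changes, plus Nfe2l2, Keap1, Bach1, Mafg and Mafk. The other NRF2 targets that did not pass in IP were named too. P-values measure the spread between libraries, each from 1 mouse, in fits without a block. Those of IP against Input and of the fraction interaction therefore treat the Input and IP libraries of a mouse as independent. Those at P17 and for age do not use the pairing described next. Fits with a block are given as alternatives. At P17 the deviations of same-numbered mice correlated at 0.17 to 0.38 in every pair, so the numbers were taken to pair the mice there, and IP and Input of a number came from 1 mouse. Symbols came from GENCODE M21 (53237 of 53342 identifiers) and promoters from RefSeq (GRCm38.p6).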

Additional observations from a re-analysis of the deposited data

Results flagged for a closer look

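Of 40 pairs of a panel gene and a group of 4 bulk libraries, 3 had a library whose gap to the nearest of the others passed Dixon's 95% limit for the group's range, and about 1 in 20 is expected by chance. They were Hmox1 in P24 bulk Ctrl, where the lowest library held 2.05 CPM and the others 2.69 to 2.72 CPM, Gclc in P24 bulk Ctrl, where the highest held 44.3 CPM and the others 41.3 to 41.5 CPM, and Gclm in P24 bulk cKO, where the lowest held 251 CPM and the others 262 to 263 CPM.

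The difference between cKO and Ctrl was larger in IP than in Input for Srxn1, by 1.00 on the log2 scale (SE 0.16, edgeR adjusted p = 0.0407), with the ratio of IP to Input higher in 3 of 3 cKO mice than in any Ctrl mouse. It passed in 4 of 17 alternatives, with an adjusted p of up to 0.216.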

How the results depend on the processing

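Over the alternatives, the IP calls of Hmox1, Srxn1, Gsr and Prdx6 held in 12 of 12, Gpx4 in 11, Nqo1 in 6 and Txnrd1 in 3, and the causes of the losses were not tested. With DESeq2 the number of genes called over the whole table was 598 in P24 bulk, 41 at P17, 127 in Input, 54 for the age interaction and 284 for the fraction interaction, and of the panel 2, 1, 1, 1 and 3 were called. Without a filter on low counts the whole-table numbers were 618, 55, 112, 62 and 189, and 3 panel genes were called in P24 bulk and 1 for age. With all libraries of a table in one fit, 3 panel genes were called in P24 bulk and 4 in IP, with 1684 genes of the whole table in IP and 127 in Input. With RLE factors or library size only, 0 panel genes were called for the fraction interaction. Library size only turned 3 estimates near 0, to 0.00 for Gclc in IP, -0.01 for Srxn1 in Input and -0.01 for Slc7a11 in the fraction interaction. It moved the whole-table median of that interaction to -0.10 and its calls from 10 up and 5 down to 5 up and 7 down.

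With the replicate block 109 genes of the whole table and 1 of the panel were called at P17, 8 and 0 in Input, 55 for age, and 6 and 0 for the fraction interaction. Deviations of same-numbered mice correlated at 0.03 to 0.22 in P24 bulk, 0.04 to 0.12 in IP and -0.03 to 0.10 in Input. In IP each library still correlated most with the library of its own number. Between IP and Input of 1 mouse the values were only 0.07 to 0.08 in Ctrl and -0.10 to 0.12 in cKO. A low correlation therefore cannot show that mice were unpaired, and whether the block pairs mice in these libraries is not known.

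Leaving out 1 library gave 216 to 950 whole-table calls in P24 bulk, 11 to 19 at P17, 2633 to 4810 in IP, 4 to 112 in Input, 4 to 149 for age and 3 to 432 for the fraction interaction. Panel calls were 1 to 4 in P24 bulk, 0 to 1 in Input, 0 to 2 for age and 0 to 3 for the fraction interaction. The upper ends in P24 bulk and age came without P24 bulk cKO replicate 1, and that of the fraction interaction without Input cKO replicate 1. Estimates that changed sign lay near 0. In P24 bulk Gclm was -0.01 to 0.03. At P17 Hmox1 was -0.08 to 0.19, Nqo1 -0.20 to 0.16, Gclm -0.04 to 0.02, Slc7a11 -0.05 to 0.00, Txnrd1 -0.01 to 0.04 and Srxn1 -0.07 to 0.04. In Input Gclm was -0.03 to 0.30, Slc7a11 -0.10 to 0.18, Txnrd1 -0.11 to 0.05 and Srxn1 -0.05 to 0.08. For age Gclm was -0.01 to 0.05 and Gpx4 -0.01 to 0.12, and for the fraction interaction Hmox1 was -0.20 to 0.13, Gclm -0.07 to 0.26 and Slc7a11 -0.05 to 0.22. Depth limits Hmox1 and Nqo1 most, at 1.13 to 5.76 CPM in bulk.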
